A study of Mus musculus with 3 samples.

Results

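The genes described here are 10 transcription factor genes of the immediate-early class: Fos, Fosb, Jun, Junb, Jund, Egr1, Egr2, Egr3, Nr4a1 and Atf3. They were read on 3 single-colour arrays by matching the gene symbol of each probe, and 9 of the 10 had a named probe, each a single probe, among 16390 genes with a probe. No probe was named for Jund here, so it has no value below. All animals carried the IL-10 Venus reporter, a fluorescent protein that marks cells expressing Il10, and the cells were freshly isolated, with no treatment named beyond the sorting. The first population was B220+ cells of the spleen, that is cells carrying the B cell form of CD45, taken without regard to Venus as far as the labels say. The second was Venus+ CD138hi cells of the spleen, and the third was Venus+ CD138hi cells of the bone marrow. CD138 (Sdc1) is a surface protein of antibody-secreting plasmablasts and plasma cells. The mouse strain, age and sex, and how many mice went into a sort, are not stated in the labels or design text. Both Venus+ populations were gated on the reporter, while the labels name no such gate for the B220+ population. The title of the series names IL-10 production driven by Blimp1 in IgM+ CD138hi cells, and the 3 arrays compare these cells with splenic B cells and with each other.

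Immediate-early genes are transcribed within minutes of a stimulus, from factors that already sit in the cell, and most of their messages are short-lived. Fos and Jun proteins pair through leucine zippers to form the AP-1 factor, and Egr proteins are zinc-finger factors. They act downstream of signals such as the ERK, JNK and p38 kinases, calcium and cAMP, and in B cells the antigen receptor is a classical trigger. The same genes are also known to respond to the dissociation and sorting of tissue.

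With 1 array for each population there was no replicate, so no difference below has a replicate check, a test or a p-value. A normalized signal is the spot intensity less the mean of the array's blank spots, scaled so that the median detected probe is 25. A probe was called detected above the blank mean plus 2 SD. The ± beside a log2 ratio is a spot error, built from the SD of blank spots and the relative SD of copied control spots on both arrays. It leaves out the spread between sorts, animals and labelling reactions. Of 23473 probes, the B220+ array detected 16917, the spleen Venus+ array 17239 and the marrow Venus+ array 15857. The 3 ratios below come from 3 arrays and share them pairwise, so the marrow over spleen ratio is fixed by the other two. Signals were set only against the same probe on another array, since probes differ in how brightly they label. The RNA came from whole sorted populations, in which fewer cells expressing a gene and less of its RNA per cell cannot be told apart.

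The gates were checked against marker genes. All 9 plasma cell markers were detected in both Venus+ populations and 8 of 9 in B220+ cells, with summed signals of 30556 in spleen, 34145 in marrow and 2424 in B220+ cells. Of 11 mature B cell markers, 11, 10 and 9 were detected in B220+, spleen Venus+ and marrow Venus+ cells, with sums of 30150, 10722 and 4254. Cr2 was not detected in either Venus+ population and Pax5 was not detected in marrow. Neutrophil markers were detected for 10 of 11 probes in B220+ cells (sum 5105), 5 in spleen Venus+ cells (127.5) and 10 in marrow Venus+ cells (560.7), with S100a9, Camp, Ltf and Mpo undetected in the spleen Venus+ array. T cell markers were detected in 9, 12 and 11 of 12 probes, with sums of 433.6, 1679 and 1662. Cd247 gave 15.7, 637 and 1038 of these sums and Cd28 5.52, 528 and 477, while Cd2 gave 381, 284 and 8.38. By 2-fold over B220+ cells, 6 of 9 T cell markers were higher and 0 lower in spleen Venus+ cells. In marrow Venus+ cells, 6 of 8 were higher and 1 lower. Monocyte markers were detected in 8, 6 and 7 of 10 probes, with sums of 1631, 10563 and 21891, of which Ly6c1 alone gave 1542, 10399 and 21606, while Adgre1, Cd14 and C1qa were undetected in both Venus+ arrays. Markers of basophils, mast cells and eosinophils were detected for 5 of 8 probes on each array, with sums of 84.1, 287.8 and 318.2. Il5ra gave 58.5, 183 and 96.7 of these sums and Mcpt8 17.5, 43.0 and 143. Kit was undetected in B220+ cells, and Fcer1a and Epx on every array. T cell, monocyte and basophil list sums were thus higher in both Venus+ arrays than in B220+ cells, as were Fos, Jun and Junb below, and their part in the values below was not tested.

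Promoter sequences hold some of the elements through which such genes are known to be switched on. The search used 12 windows of the RefSeq promoter table (GRCm38.p6) for 8 of the genes, 5 of them for Egr2. The 250 bases before each start were searched on both strands. Windows on a single chromosome were left out when these genes were matched, and no window of Egr1 or Egr3 was searched. The motifs were the cAMP response element (CRE) TGACGTCA, its core TGACG, the AP-1 sites TGACTCA and TGAGTCA, the CArG box bound by SRF, the Egr sites GCGTGGGCG and GCGGGGGCG, the Nr4a site AAAGGTCA and the TATA box TATAAA. The core lies within the whole CRE, so a CRE would count for both. An AP-1-like site, TGACATCA, was added after these had been searched. The windows of Fos, Jun and Junb are printed because these genes were higher in both Venus+ populations. Those of Egr2 and Nr4a1 are printed because these genes were lower in marrow than in spleen Venus+ cells. Each reads 5′ to 3′ along the gene's strand and ends at the base before the start, with motif matches in capitals (on the opposite strand where they read CGTCA or CGCCCCCGC). The windows are chr12:85473640-85473889 (plus strand) for Fos, chr4:95052223-95052472 (minus) for Jun, chr8:84978749-84978998 (minus) for Junb, chr10:67537619-67537868 (plus) for the third of the Egr2 windows and chr15:101266596-101266845 (plus) for Nr4a1.
Fos: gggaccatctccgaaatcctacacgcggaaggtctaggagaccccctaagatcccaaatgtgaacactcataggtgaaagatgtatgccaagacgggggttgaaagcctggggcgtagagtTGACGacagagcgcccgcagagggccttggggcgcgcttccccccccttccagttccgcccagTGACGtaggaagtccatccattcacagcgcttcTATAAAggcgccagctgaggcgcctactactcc
Jun: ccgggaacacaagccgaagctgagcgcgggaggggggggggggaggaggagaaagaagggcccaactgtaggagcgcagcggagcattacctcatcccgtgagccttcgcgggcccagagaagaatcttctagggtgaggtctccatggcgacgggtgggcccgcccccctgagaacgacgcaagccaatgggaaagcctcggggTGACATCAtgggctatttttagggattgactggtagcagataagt
Junb: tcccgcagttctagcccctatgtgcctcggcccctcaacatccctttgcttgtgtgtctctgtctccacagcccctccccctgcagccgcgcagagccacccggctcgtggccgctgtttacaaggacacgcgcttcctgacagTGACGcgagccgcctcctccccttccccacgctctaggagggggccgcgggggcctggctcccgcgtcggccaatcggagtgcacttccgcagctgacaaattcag
Egr2: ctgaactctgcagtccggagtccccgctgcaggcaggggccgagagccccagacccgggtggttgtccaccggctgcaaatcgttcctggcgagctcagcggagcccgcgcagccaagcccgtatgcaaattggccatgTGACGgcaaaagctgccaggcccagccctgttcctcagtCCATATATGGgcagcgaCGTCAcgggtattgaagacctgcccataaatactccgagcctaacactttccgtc
Nr4a1: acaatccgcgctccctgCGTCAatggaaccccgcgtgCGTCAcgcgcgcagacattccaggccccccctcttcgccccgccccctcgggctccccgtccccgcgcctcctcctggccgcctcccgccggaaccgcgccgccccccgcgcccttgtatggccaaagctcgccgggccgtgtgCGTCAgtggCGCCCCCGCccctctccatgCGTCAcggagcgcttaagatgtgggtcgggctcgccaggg

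The Fos window held the CRE core at 129 to 125 and at 66 to 62 bases before the start, and a TATA box at 33 to 28. Jun held the AP-1-like site at 45 to 38 bases before the start and none of the motifs listed first. Junb held 1 CRE core, at 106 to 102. The Egr2 window held a CArG box at 72 to 63 bases, flanked by CRE cores at 111 to 107 and, on the opposite strand, at 55 to 51. Nr4a1 held 4 CRE cores, all on the opposite strand, and an Egr site at 60 to 52. Among windows not printed, Fosb held a CRE core at 60 to 56 and an Egr site at 50 to 42, Atf3 held a CRE core at 7 to 3, and Jund held none. No searched window of these genes held the whole CRE, an AP-1 site or the Nr4a site, and Egr1 and Egr3 had no searched window. Among all 32851 windows of the table, 17.8% held the CRE core, 12.4% the TATA box, 3.06% an Egr site, 2.93% the AP-1-like site and 1.47% a CArG box, while 1.55% held the whole CRE, 4.46% an AP-1 site and 1.34% the Nr4a site. A match is a run of letters and no measure of binding.

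**Figure D1:**
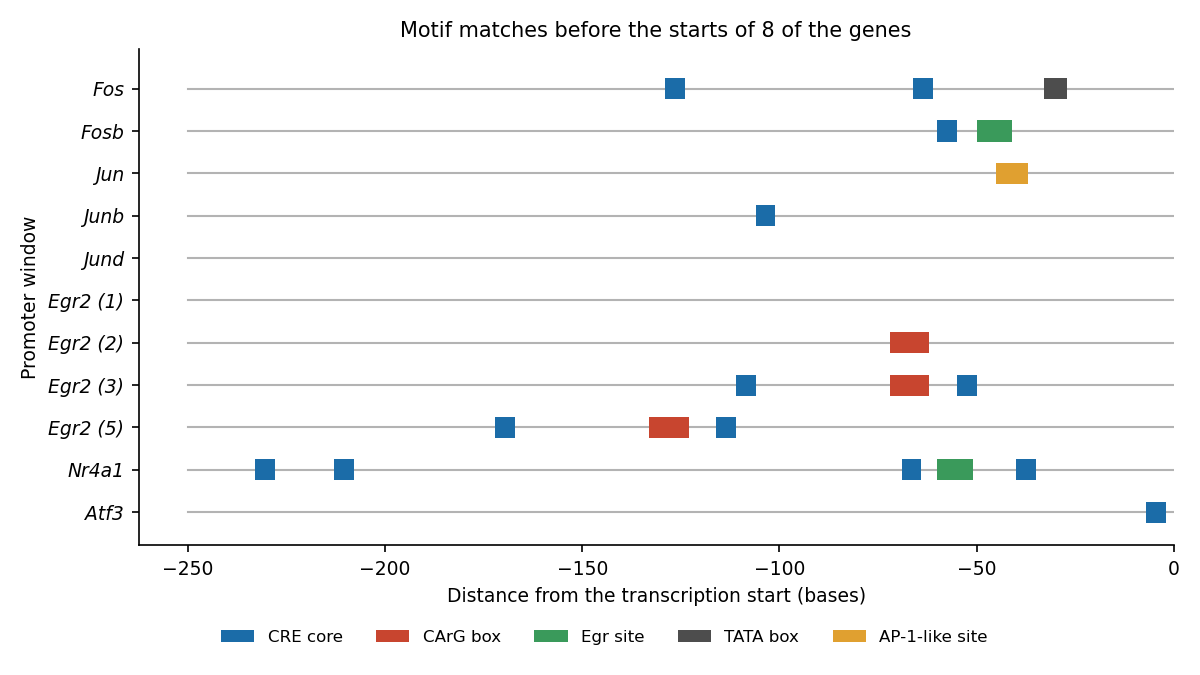
Position of motif matches (coloured blocks) along the 250 bases before the transcription start (x axis, bases from the start) for 11 promoter windows of 8 genes (rows). The fourth Egr2 window lies 1 base from the third and is left out. Within these 250 bases, CRE cores appear in Fos, Fosb, Junb, Egr2, Nr4a1 and Atf3, CArG boxes in Egr2 alone among the searched genes, and the AP-1-like site in Jun alone. Sequence farther from the start was not searched.

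Fos, which binds DNA only in a pair with a partner such as Jun, separated the populations most widely of the genes detected. Its normalized signal was 7.99 for the B220+ array, 1549 for spleen Venus+ and 513 for marrow Venus+. The B220+ value stood close to the detection limit, at 1.27 times the spot intensity of that limit, against 47.5 times in spleen and 13.4 times in marrow Venus+ cells. Fos was 194-fold higher in spleen Venus+ than in B220+ cells (log2 ratio 7.60 ± 0.18), the 8th highest ratio of 11618 genes detected on both arrays. In marrow Venus+ cells it was 64.2-fold higher than in B220+ cells (6.0 ± 0.18), the 44th highest of 10813 genes. Between the Venus+ populations, marrow was 3.02-fold below spleen (-1.59 ± 0.11). The size of the fold depended on the background correction. The log2 ratio over B220+ cells was 6.94 for spleen and 4.89 for marrow with the local background, and 4.16 and 1.86 with normexp on it, which also adds an offset of 50 to every spot.

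Jun, which can pair with itself or with Fos, followed the same order. B220+ cells gave a signal of 48.1, spleen Venus+ cells 905 and marrow Venus+ cells 431. All 3 spots were well clear of the limit, at spot intensities of 135, 1203 and 499. Jun was 18.8-fold higher in spleen Venus+ than in B220+ cells (log2 ratio 4.23 ± 0.14, 88th highest). In marrow Venus+ cells it was 8.97-fold higher than in B220+ cells (3.16 ± 0.13, 353rd highest). Marrow was 2.10-fold below spleen (-1.07 ± 0.11), and this last difference fell under 2-fold with scaling to commonly detected probes (-0.74), after quantile normalization (-0.91), with the local background (-0.52) and with normexp on it (-0.94).

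Junb, a Jun relative that is a weaker activator in many settings, moved in the same direction by less. Its signals were 78.0 in B220+, 243 in spleen Venus+ and 169 in marrow Venus+ cells. Spleen Venus+ cells were 3.11-fold above B220+ cells (1.64 ± 0.14) and marrow Venus+ cells 2.17-fold above them (1.12 ± 0.13). The marrow difference was under 2-fold with the local background (0.50) and with normexp (0.13, or 0.55 on the blank mean), and the spleen difference was 0.99 with normexp on the local background. Marrow and spleen Venus+ cells differed by 1.44-fold (-0.52 ± 0.11), short of 2-fold.

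Fosb, the Fos paralog best known for its stable truncated form in neurons, did not share the high level of Fos in Venus+ cells. Its signals were 10.3, 17.4 and 12.9 in B220+, spleen Venus+ and marrow Venus+ cells, and the spots before normalization were 63.3, 62.8 and 55.0. No pair of arrays reached 2-fold: the log2 ratios were 0.75 ± 0.18 for spleen Venus+ over B220+ cells, 0.33 ± 0.21 for marrow over B220+ and -0.43 ± 0.19 for marrow over spleen. The first reached 1.14 when the limit came from spots without a probe, and was 0.00 with normexp. Fos and Fosb, members of one family, thus lay 7.60 and 0.75 above B220+ cells on the log2 scale in the spleen.

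**Figure D2:**
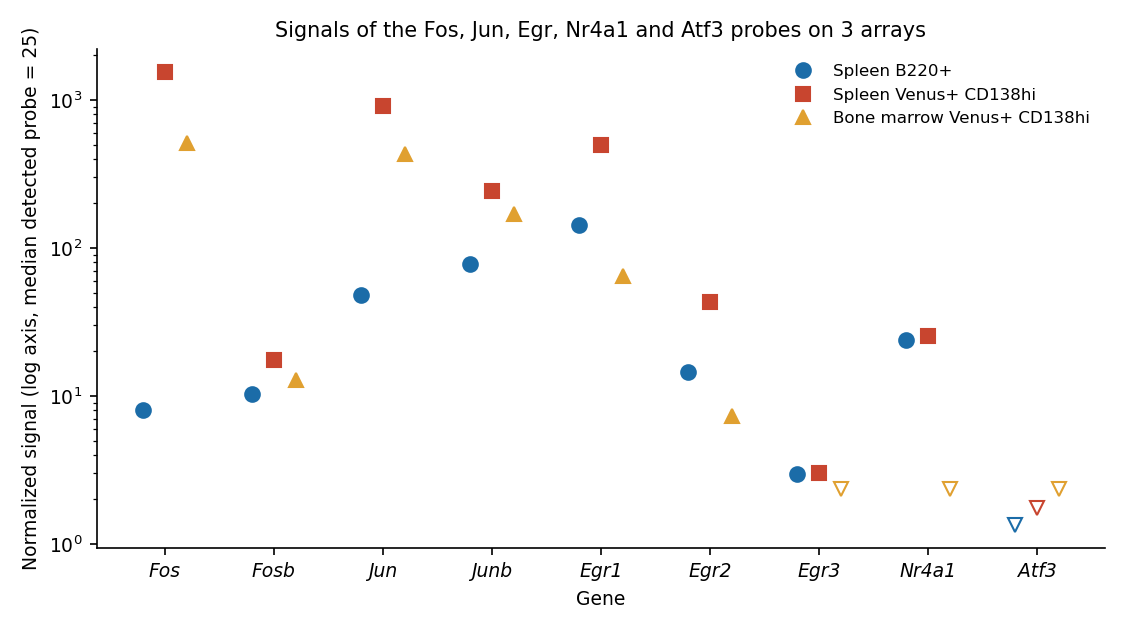
Normalized signal of the probe of each gene (log axis, median detected probe set to 25) on the 3 arrays, with 1 point for each array and no error bar because there is 1 array per population. Open triangles stand at the lowest detected signal of an array for probes that were not detected there. Spleen Venus+ cells are highest for Fos, Jun, Junb, Egr1 and Egr2, and marrow lies above B220+ cells for Fos, Jun and Junb but below them for Egr1 and Egr2. Heights of different genes are not comparable.

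Egr1 is a zinc-finger activator induced by ERK signalling, and its order across the arrays was different. B220+ cells gave a signal of 142, spleen Venus+ cells 494 and marrow Venus+ cells 64.9. Spleen Venus+ cells were 3.48-fold above B220+ cells (1.80 ± 0.14), while marrow Venus+ cells were 2.19-fold below them (-1.13 ± 0.14). Between the Venus+ populations the difference was 7.62-fold, lower in marrow (-2.93 ± 0.12), the 57th lowest ratio of 11352 genes. That difference stayed past 2-fold in every processing that was tried, between -3.10 and -2.10. The marrow to B220+ difference did not, at -0.84 after scaling to the probes detected on all arrays, -0.53 after quantile normalization, -0.55 with normexp on the local background and -0.88 when the limit came from spots without a probe.

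Egr2, the relative of Egr1 known in T cells for restraining activation, showed the same order at a lower spot brightness. Its signals were 14.6, 43.3 and 7.31 in B220+, spleen Venus+ and marrow Venus+ cells, with spots at 1.55, 2.25 and 1.12 times the limit. Spleen Venus+ cells were 2.96-fold above B220+ cells (1.57 ± 0.16), and marrow was 5.92-fold below spleen (-2.57 ± 0.26, 89th lowest). Marrow and B220+ cells differed by -1.0 ± 0.28 (log2), just short of 2-fold, a ratio that ran from -1.54 with the local background to -0.07 with normexp on the blank mean. Other background corrections moved the larger differences too. The spleen to B220+ log2 ratio was -0.08 with the local background, 0.00 with normexp on it and 0.66 with normexp on the blank mean, and the marrow to spleen ratio was -1.46, still past 2-fold, then -0.18 and -0.74.

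Egr3 gave almost no signal. It was 2.98 in B220+ and 3.00 in spleen Venus+ cells and was not detected in marrow, where the spot was 43.2 against a limit of 43.7. The spleen to B220+ log2 ratio was 0.01 ± 0.55, and marrow was at least 1.27-fold lower than either, a bound that says little. A bound here sets the brighter signal against the faintest signal still detected on the other array, 2.35 in marrow.

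Nr4a1, an orphan nuclear receptor used as a reporter of antigen-receptor signalling in B and T cells, was level between the spleen populations and was not detected in marrow. Its signals were 24.0 in B220+ and 25.6 in spleen Venus+ cells (0.09 ± 0.15). In marrow its spot, 42.6, lay under the limit. With the blank-spot correction used here, Nr4a1 was therefore at least 10.2-fold lower in marrow Venus+ than in B220+ cells. Against spleen Venus+ cells it was at least 10.9-fold lower. The spots before normalization were 89.5, 73.3 and 42.6 in B220+, spleen Venus+ and marrow Venus+ cells, and no bound was computed under other processing. The spleen to B220+ ratio was -1.28 with the local background, and stayed within 2-fold in every other processing tried.

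Atf3, a stress-induced factor that pairs with Jun and often represses, was not detected on any array. Its spots were 41.9, 41.3 and 39.8, each under the limit of its array (46.2, 42.7 and 43.7). Among stress-responsive factors outside these genes, the related Atf5 was detected on all 3 arrays, at 3.37, 85.6 and 107, the first of them dim. Atf4 (842, 948 and 708) and Ddit3 (363, 266 and 329) were also detected on all 3 arrays, and stayed within 2-fold between them.

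Counted together, 5 of the 8 genes detected on both arrays were at least 2-fold higher in spleen Venus+ than in B220+ cells (Fos, Jun, Egr1, Junb, Egr2) and 0 were lower, where 15.7% of the 11618 genes were higher and 16.5% lower. Their median log2 ratio was 1.60, against -0.02 over all genes. In marrow against B220+ cells, 3 of 6 were higher (Fos, Jun, Junb) and 1 was lower (Egr1), where 22.4% of genes were higher and 30.7% lower, and Nr4a1 and Egr3 were detected in B220+ cells alone. The median was 0.72, against -0.24 over all genes. In marrow against spleen Venus+ cells, 0 of 6 were higher and 4 were lower (Egr1, Egr2, Fos, Jun), where 4.33% of genes were higher and 15.2% lower. The median was -1.33, against -0.17 over all genes, which leaves -1.16 relative to them. The genes were chosen with earlier results of these data known, so these counts describe them and support nothing further.

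The marrow array sat low as a whole, and this depends on the scaling. Of the genes past 2-fold between marrow and spleen Venus+ cells, 22.2% were higher in marrow, but 57.7% after scaling to the probes detected on all arrays and 50.8% after quantile normalization. For marrow against B220+ cells these shares were 42.2%, 53.9% and 50.8%. The median of all genes moved from -0.17 to 0.16 (marrow over spleen) and from -0.24 to 0.05 (marrow over B220+) with the first of these scalings. Egr1, Egr2 and Fos remained at least 2-fold lower in marrow than in spleen Venus+ cells under both scalings, at -2.60, -2.23 and -1.26 under the first and -2.68, -2.47 and -1.44 under the second.

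**Figure D3:**
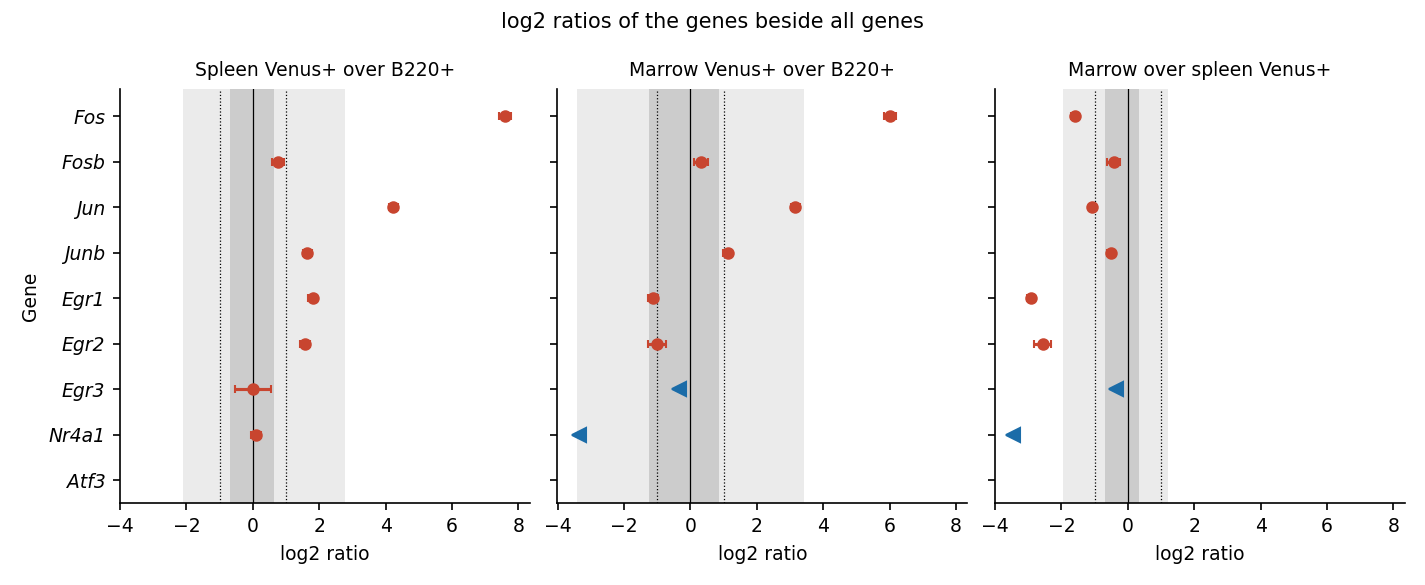
log2 ratio of each gene (red points, bars are the spot error) in the 3 comparisons, over the range from the lower to the upper quartile of all genes detected on both arrays (dark grey), the range left without the lowest and the highest 2.5% of genes (light grey) and 2-fold (dotted lines). Blue triangles are upper bounds for genes not detected in marrow, and Atf3 has no value. Fos and Jun lie outside the light band in the first panel, and Fos in the second. Egr1, Egr2 and the bound of Nr4a1 lie outside it in the third.

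The order spleen Venus+, then marrow, then B220+, with at least 2-fold at each step, was seen in 25 of the 10769 genes detected on all 3 arrays (0.232%), Fos and Jun among them. The order spleen Venus+, B220+, marrow, with the same steps, was seen in 7 genes (0.0650%), Egr1 among them. Under some of the other processing, the marrow to spleen step of Jun and the marrow to B220+ step of Egr1 fell under 2-fold. Both patterns were defined after these values had been seen, so the shares describe and do not test. By distance between pairs of log2 ratios (spleen Venus+ over B220+ and marrow over spleen Venus+, over 3 arrays), the genes nearest to Jun were Rhob (4.44 and -0.76, distance 0.37), Cacna1h (4.40 and -0.71, 0.40) and Ttc41 (4.08 and -0.70, 0.41). Rhob and Ttc41 were dim in B220+ cells, at 2.16 and 3.15. The spot error of the first Rhob ratio, 0.47, exceeded its distance, so the order of these neighbours is loose. Fos had no close neighbour. The nearest were Cd28 (6.58 and -0.15), Derl3 (7.23 and 0.24) and Rgcc (7.60 and 0.29), at distances of 1.77, 1.87 and 1.88, and none of them shared its lower level in marrow by 2-fold.

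Counts over lists of surrounding genes are read against the shares of all genes given above, which in marrow were more often lower than higher. Related bZIP, Egr-like and nuclear receptor factors did not move as a group. Of 24 detected on both arrays, 8 were at least 2-fold higher and 5 lower in spleen Venus+ than in B220+ cells, with a median of 0.37. The highest were Atf5 (4.67 ± 0.32) and Creb3l2 (3.38 ± 0.46), a factor of the secretory pathway, and the lowest were Atf7 (-2.24 ± 0.34) and Sp3 (-1.48 ± 0.14). In marrow against B220+ cells, 5 of 21 were higher and 7 lower (median 0.43), led by the same Atf5 (4.99) and Creb3l2 (4.36), with Sp1 (-3.19 ± 0.43) and Atf1 (-2.61 ± 0.16) lowest. With normexp on the local background the spleen ratios of Atf5 and Creb3l2 were 0.99 and 0.21. In marrow against spleen Venus+ cells, 0 of 21 were higher and 6 lower (median -0.42), and Batf, the partner of Jun proteins in lymphocytes, was -1.89 ± 0.13. The other Fos and Nr4a genes were dim: Fosl2 gave 2.24, 3.26 and 3.21, and Fosl1, Nr4a2 and Nr4a3 were not detected on any array.

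Factors that act on such promoters were counted next. Of 17 upstream transcription factors and coactivators detected on both arrays, 1 was higher and 6 lower in spleen Venus+ than in B220+ cells (median -0.59). In marrow against B220+ cells, 3 of 16 were higher and 9 lower (median -1.56), and in marrow against spleen Venus+ cells 0 of 16 were higher and 8 lower (median -0.87). The shares lower were 35.3%, 56.2% and 50%, against 16.5%, 30.7% and 15.2% of all genes. Crebbp and Ep300, coactivators of CRE-bound factors, were among the lowest. Crebbp was 40.5, 10.4 and 3.21 in B220+, spleen Venus+ and marrow Venus+ cells (-1.96 ± 0.18 for spleen over B220+). Ep300 was 73.9 and 17.8 and not detected in marrow, at least 31.4-fold below B220+ cells. Mrtfa, a coactivator of SRF at CArG boxes, was 59.3, 19.6 and 3.82 (-1.60, -3.96 and -2.36 for spleen over B220+, marrow over B220+ and marrow over spleen). Under other processing these ratios shrank to as little as -0.36 (spleen) and -0.33 (marrow) over B220+ cells for Crebbp and -0.43 (spleen) for Ep300. Mrtfa shrank to -0.56 for marrow over B220+ and -0.14 for marrow over spleen. The marrow signals of Crebbp and Mrtfa lay near the lowest detected on that array, 2.35. Mef2d was the highest in both Venus+ populations, at 106, 449 and 584 (2.08 ± 0.14 and 2.46 ± 0.13 over B220+). Crtc1, another coactivator of the list, came next, at 0.86 ± 0.80 in spleen and 1.22 ± 0.82 in marrow over B220+ cells. It was dim, and these 2 ratios fell to as little as -0.05 and 0.04 under other processing. Its relatives Crtc2 (-1.61 and -2.34) and Crtc3 (-0.65 and -1.66) went the other way.

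Upstream kinases were mostly within 2-fold. Of 27 detected on both arrays, 1 was higher, 5 lower and 21 within 2-fold in spleen Venus+ against B220+ cells (median 0.03). In marrow, 2 of 26 were higher and 8 lower than in B220+ cells (median -0.58), and 0 of 26 were higher and 7 lower than in spleen Venus+ cells (median -0.61). The kinases lower in marrow than in B220+ cells were 30.8%, near the 30.7% of all genes, and those lower in spleen Venus+ than in B220+ cells 18.5%, near 16.5%. Those lower in marrow than in spleen Venus+ cells were 26.9%, against 15.2% of all genes. Fewer kinases than genes at large were higher than in B220+ cells: 3.70% against 15.7% in spleen and 7.69% against 22.4% in marrow. Prkcb, the protein kinase C of antigen-receptor signalling in B cells, was 554, 142 and 14.1 (-1.97, -5.30 and -3.33). Rps6ka5, a kinase that phosphorylates histone H3 and CREB at immediate-early genes, was -3.12 ± 0.20 in spleen and at least 31.0-fold lower in marrow, both against B220+ cells. Mapk12 was the highest in spleen Venus+ cells (1.96 ± 0.14).

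Feedback regulators, which are often induced by the same signals, split. In spleen Venus+ against B220+ cells, 4 of 16 were higher and 4 lower (median -0.37). Dusp1, the nuclear phosphatase of JNK and p38, was 10.4, 82.2 and 17.9, with log2 ratios of 2.99 ± 0.17 for spleen over B220+ cells and -2.20 ± 0.15 for marrow over spleen. Dusp6, the ERK phosphatase, was 284, 39.5 and 11.9 (-2.85 ± 0.14 and -4.58 ± 0.19 over B220+). Dusp2 was -5.76 ± 0.25 in marrow over B220+ cells, and Rgs2 was -3.48 ± 0.14 in spleen and at least 289-fold lower in marrow. Dusp4 was higher in both Venus+ populations (1.72 and 2.31). In marrow, 3 of 13 were higher and 7 lower than in B220+ cells (median -1.16), and 0 were higher and 6 lower than in spleen Venus+ cells (median -0.80). Nab2, the corepressor that binds Egr proteins, was 32.7, 33.2 and 14.6 (-1.19 ± 0.17 for marrow over spleen). Zfp36, which speeds the decay of short-lived messages and is named here after its values were seen, was 15.3, 34.3 and 10.8.

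Other immediate-early genes did not follow Fos and Jun as a class. In spleen Venus+ against B220+ cells, 8 of 36 were higher and 8 lower (median 0.09). Rhob (4.44 ± 0.47) and Trib1 (3.46 ± 0.15) were highest, and Id3 (-4.15 ± 0.14) and Gadd45g (-3.44 ± 0.15) lowest. In marrow against B220+ cells, 7 of 34 were higher and 14 lower (median -0.84), with the antiproliferative gene Btg1 at 7143, 1250 and 42.7 on the 3 arrays (-7.39 ± 0.14). In marrow against spleen Venus+ cells, 1 of 35 was higher (Amotl2, 1.5 ± 0.12) and 15 lower (median -0.78), Btg1 and Id2 the lowest at -4.87 and -3.08. Ier2 and Ppp1r15a were picked after their values were seen. Ier2 (104, 267 and 93.3) was highest in spleen Venus+ cells and level between marrow and B220+ cells, and Ppp1r15a (20.3, 191 and 88.1) kept the order of Fos and Jun.

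Genes known as targets of AP-1 or Egr factors gave 5 higher and 2 lower of 10 in spleen Venus+ against B220+ cells (median 0.60). Of all genes, 15.7% were higher and 16.5% lower. Cdkn1a, the cell-cycle inhibitor, was 3.13, 21.1 and 3.01, that is 2.75 ± 0.34 above B220+ cells in the spleen and -2.81 ± 0.58 in marrow over spleen. Bcl2l11 (2.24 ± 0.35) was the other of the highest, and Tnf (-2.77 ± 0.54) and Tgfb1 (-1.56 ± 0.16) were lowest. Cdkn1a and Bcl2l11 were 0.17 and 0.03 over B220+ cells in the spleen with normexp on the local background. The marrow over spleen ratio of Cdkn1a shrank to as little as -0.18 under other processing, and its marrow signal lay near the lowest detected there, 2.35. In marrow, 4 of 9 were higher and 2 lower than in B220+ cells (median -0.06), Hbegf the highest at 2.30 ± 0.21, and 0 were higher and 2 lower than in spleen Venus+ cells (median -0.38). Of all genes, 22.4% were higher and 30.7% lower than in B220+ cells, and 4.33% higher and 15.2% lower than in spleen Venus+ cells.

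Heat shock genes, which also respond to handling, were counted beside these values. Of 15 listed, 11 had a named probe, and Hspa1a, Hspa1b, Hspe1 and Hsph1 had none and so have no value. In spleen Venus+ against B220+ cells, 2 of 11 were higher (Hspb1, 3.33 ± 0.14, and Bag3, 1.26 ± 0.29) and 3 lower, Dnaja1 lowest at -1.62 ± 0.14 (median -0.37). In marrow, 3 were higher and 5 lower than in B220+ cells (median -0.83), and 0 were higher and 1 lower, Hspd1, than in spleen Venus+ cells (median -0.43). The part of handling in the Fos, Jun and Egr values was not tested, since no unsorted sample was analysed here.

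**Figure D4:**
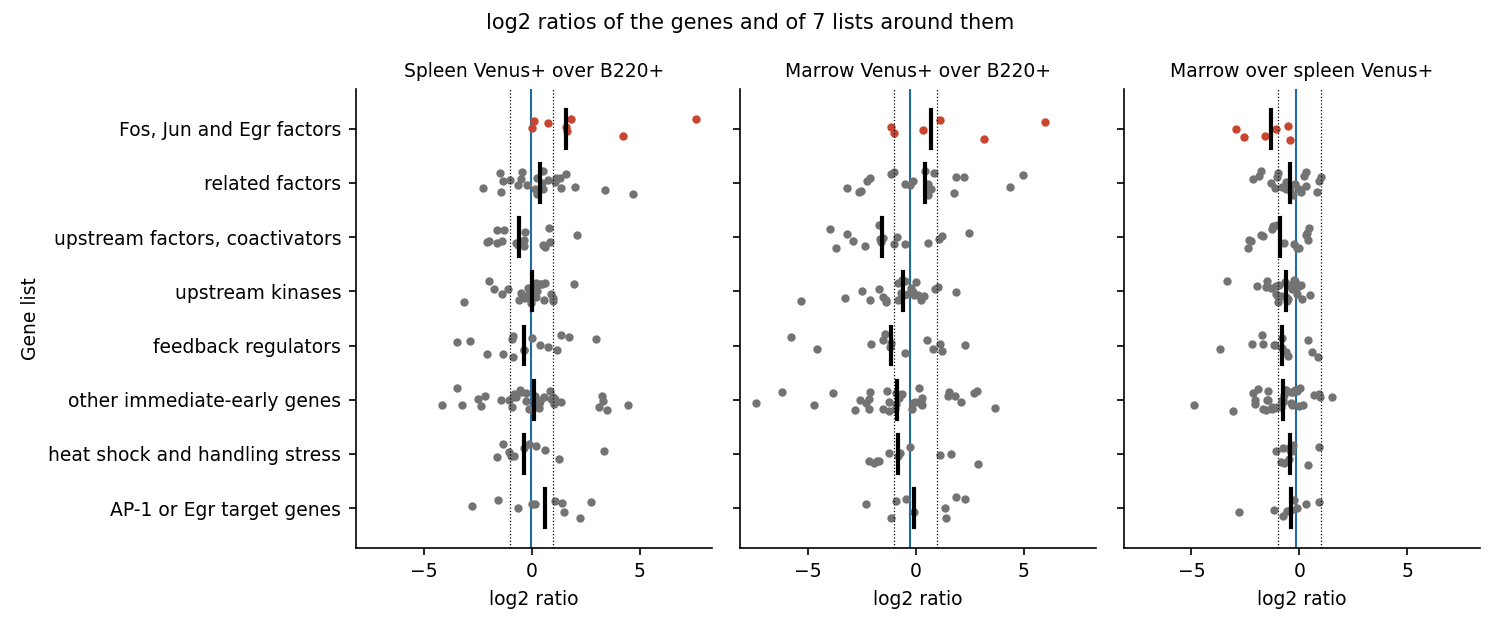
log2 ratios of the Fos, Jun and Egr factors (red) and of 7 lists of genes around them (grey, 1 point for each gene detected on both arrays; vertical scatter has no meaning) in the 3 comparisons, with the median of each list (black bar), the median of all genes (blue line) and 2-fold (dotted lines). In spleen Venus+ over B220+ cells the median of the red points is 1.60, and the medians of the other lists lie between -0.59 and 0.60.

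Across 10 other ways of processing, 15 of the 20 log2 ratios of these genes kept their sign and 11 kept their side of 2-fold. Dropping the detection filter or asking for a signal of at least 10 reused the same signals. The mean over probes changed nothing, because each gene had a single probe. The authors' values came from the same steps, so these settings are no separate check of the ratios. Fos stayed between 4.16 and 7.98 and Jun between 2.51 and 4.62 for spleen Venus+ over B220+ cells, and Egr1 between 1.34 and 2.18. For marrow over B220+ cells Fos stayed between 1.86 and 6.30 and Jun between 1.57 and 3.48. The ratios that crossed 2-fold are those named above for Jun, Junb, Egr1, Egr2, Fosb and Nr4a1.

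**Figure D5:**
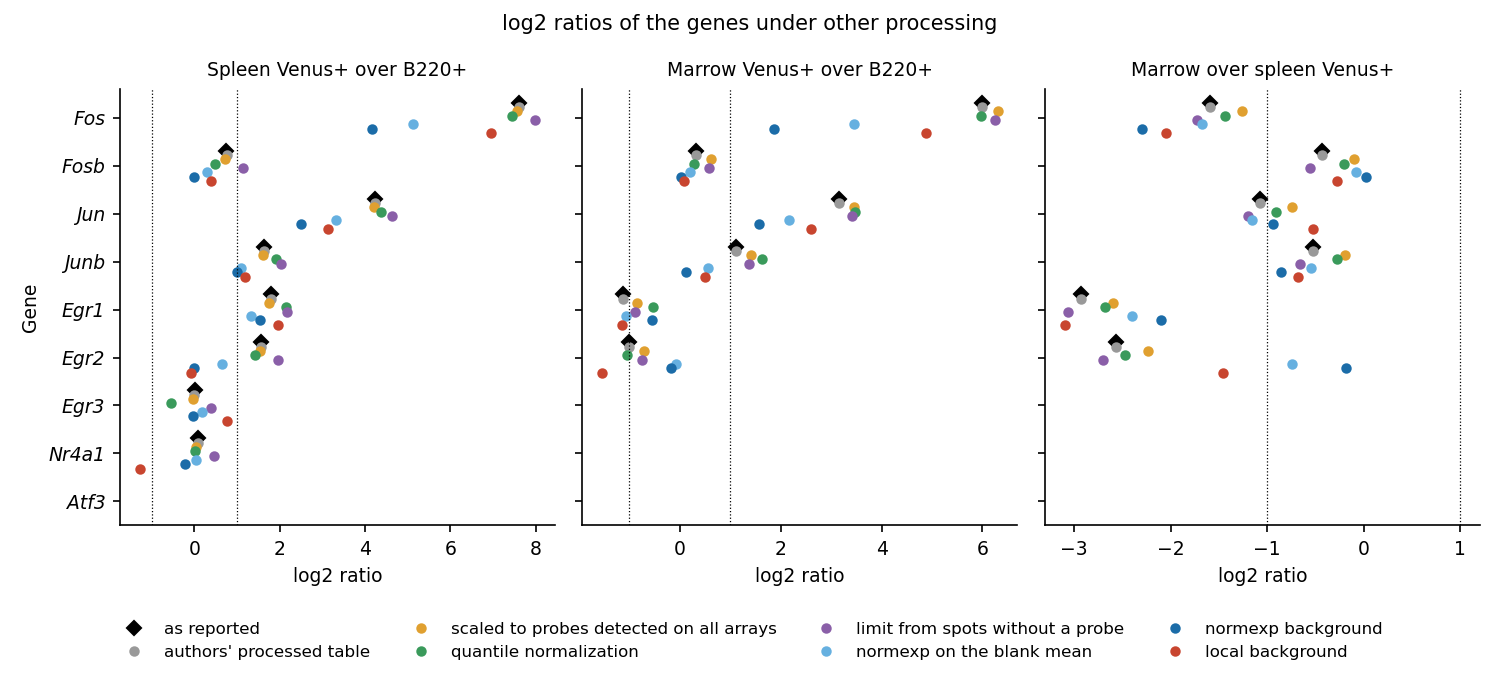
log2 ratio of each gene as reported (black diamonds) and under 7 other ways of processing (coloured points) in the 3 comparisons, with 2-fold as dotted lines. For spleen Venus+ over B220+ cells every point of Fos, Jun and Egr1 lies above 2-fold, whereas those of Egr2 run from -0.08 to 1.95.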

How the data were processed

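RNA of 3 sorted mouse cell populations was labelled with Cy5 and hybridized to 3D-Gene oligonucleotide arrays, 1 array each, per the labels' protocols. The deposited scanner files give the median intensity of each spot and a local background, per the file headers. The authors also deposited processed intensity values, for which a blank level was subtracted and the median detected signal set to 25, per the design text of the series. The same steps were run here on the scanner intensity: the mean of the middle 90% of 2736 blank spots (2462 spots) was subtracted and the limit set at that mean plus 2 SD. Detection calls then differed from the authors' table for 0 probes. The spot error combined a blank SD of 0.670, 0.868 and 1.18 with a control-spot SD of 7.57, 5.77 and 5.21% in B220+, spleen and marrow Venus+ cells.

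Probes were named from the platform annotation: 16631 of 23473 had 1 symbol, and the other 6842, without a single symbol, were not named. Symbols were updated through RefSeq (GRCm38.p6). The probe of highest mean log2 signal stood for a gene. No model was fitted across arrays, since none had a replicate. A ratio of at least 2-fold, detected on both arrays, was counted. The genes, the lists around them and the rule for naming (the 2 highest and 2 lowest of each list and comparison, and the 3 nearest genes) were chosen with earlier results of these data known. Other background corrections, scalings, limits and filters were tried with limma 3.58.1 and Python 3.11.15, and the calculation of ratios was tested on simulated data.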

Additional observations from a re-analysis of the deposited data

How the results depend on the processing

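No paired analysis was possible because each population had 1 array. Counts and medians of the Fos, Jun and Egr factors that moved are as follows, and the cause was not tested. For spleen Venus+ over B220+ cells, normexp on the local background gave 3 higher and a median of 0.50, normexp on the blank mean (added after seeing the data) a median of 0.88, the local background 1 lower and a median of 0.97, and a limit from spots without a probe a median of 1.99. For marrow over B220+ cells, 0 were lower with normexp on the local background, with scaling to common probes, with a limit from probe-free spots and at 3-fold, and 2 were lower with the local background, with no detection filter and in the authors' table. The median there was 0.08 with normexp, 0.38 with normexp on the blank mean, 0.30 with the local background, 0.96 with quantile normalization, 1.01 with scaling to common probes, 0.97 with that limit and -0.19 with no filter. For marrow over spleen Venus+ cells, 2 were lower with normexp, and the median was -0.90 with normexp, -0.95 with normexp on the blank mean, -1.07 with the local background, -1.18 with quantile normalization, -1.0 with scaling, -1.47 with a limit from probe-free spots and -1.07 with a signal of at least 10 on both arrays.

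Of 104 named log2 ratios, 83 kept their sign in each setting that gave a value. Calls were lost more often than signs: 54 of the named ratios past 2-fold fell under it with normexp on the local background, 33 with normexp on the blank mean and 15 with the local background. Among ratios past 2-fold, 12 values changed sign. With the local background these were Egr2 (-0.08) and Dnajb4 (1.06) in spleen over B220+ cells, and Bag3 (-0.39), Bcl2l11 (-0.56), Mapk8 (4.58) and Sp1 (0.19) in marrow over B220+ cells. With normexp they were Bag3 (-0.05) and Rhob (-0.08) in spleen over B220+ cells, and Hspd1 (1.49), Map2k7 (0.00), Mapk8 (0.08) and Sp1 (0.03) in marrow over B220+ cells.

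The local background rose with the signal of its own spot: its median was 35.3, 34.5 and 37.3 on blank spots and 1149, 1384 and 1469 beside probe spots above 1000. Signal over the limit bounds what dim probes can show: Fosb, Egr3 and Atf3 on all arrays, the B220+ values of Fos and Egr2, and the marrow values of Egr2 and Nr4a1 had spots no more than 1.55 times the limit.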
